A study of Mus musculus with 12 samples.

Results

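The serum response of Lap2-depleted fibroblasts was followed by RNA-seq in 6 of the 12 libraries of the study: 3 libraries of cells kept in 0.3% FBS and 3 of cells given 15% FBS for 45 min, all treated with siRNA against Lap2. The cells were NIH 3T3, an immortalized line of mouse embryo fibroblasts, transfected with siRNA, transfected again later and starved of serum before the stimulation. The siRNA was directed against all isoforms of Lap2, both those anchored in the nuclear membrane and the nucleoplasmic one, and the other 6 libraries came from cells given a nonsilencing control siRNA in the same pair of serum conditions. All 12 libraries thus came from transfected and serum-starved cells of a single line, and 1 siRNA sequence stood for the depletion, so that its effects on Lap2 and on other transcripts cannot be told apart. Nothing says whether the 3 libraries of a group came from separate cultures, so p-values measure the spread between these libraries, which may be technical.

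Quiescent fibroblasts that meet serum transcribe within minutes a set of immediate-early genes that need no new protein synthesis. Serum response factor (SRF), which binds CArG boxes, carries much of this response with either of 2 kinds of partner: ternary complex factors, which are phosphorylated by ERK, and the actin-regulated coactivators MRTF-A and MRTF-B, which drive genes of the actin cytoskeleton. Lap2, encoded by Tmpo, is a protein of the nuclear lamina, and the study asked how its loss bears on this program.

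The deposited values were counts of reads per gene. Total counts were 18026298 to 20535682 in 0.3% FBS and 19230387 to 22838900 in 15% FBS with Lap2 siRNA, and 18816519 to 26265253 with control siRNA. Levels are given below as normalized counts, for which each library's counts were scaled by its total and TMM factor to a common size, the mean over the 12 libraries. Changes are given as the log2 fold change (log2FC) of 15% over 0.3% FBS, with its standard error, and a gene was called when its adjusted p from edgeR's quasi-likelihood test was under 0.05. Because the test used all reads of a gene, levels can be compared between libraries but not between genes of different length.

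Tmpo (ENSMUSG00000019961, mm10 chromosome 10, 91147571 to 91181315), the target, was measured in every library. It had 2775, 2805 and 2885 normalized counts in serum-starved and 3264, 3243 and 3019 in serum-stimulated control siRNA treated cells, against 982, 1176 and 1093 in 0.3% FBS and 767, 745 and 607 in 15% FBS with Lap2 siRNA. Every Lap2 siRNA library was below every control library. Within the Lap2-depleted cells Tmpo also fell between the serum conditions (log2FC -0.62 ± 0.08, edgeR adjusted p = 1.9e-07), so the serum-stimulated libraries were those with less of the target, and the part of this in the results below was not tested. Of the markers examined, all 11 of fibroblasts were expressed, with summed levels of 527726 to 633782 normalized counts in 0.3% FBS and 640123 to 716718 in 15% FBS with Lap2 siRNA and 872586 to 990460 in the control libraries. Markers of epithelial, endothelial, leukocyte, skeletal muscle and adipocyte cells summed to at most 83.2 per list in any Lap2 siRNA library. Krt18, Kdr, Adgre1, Myod1 and Plin1 were at 0 in all 6 of these libraries. Others were present, the highest being Cd68 (25.4 to 51), Vwf (18 to 42.7) and Csf1r (14.8 to 32.2). Among 4 neuronal markers, Map2 lay between 221 and 319 and Snap25 between 119 and 167 normalized counts in the Lap2 siRNA libraries. In bulk RNA, fewer cells of a kind and less RNA per cell cannot be told apart.

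One library stood apart. Over 10449 genes, the deviations of replicate 1 in 0.3% FBS from its group mean had a correlation of -0.74 with those of replicate 2 and -0.75 with those of replicate 3, which had a correlation of 0.11 with each other. This is a description over genes of 3 libraries that share a mean. In replicate 1, genes spanning over 50 kb lay at a median log2 deviation of -0.108 from the group mean and genes under 10 kb at 0.084. Where leaving out this library moved a count of calls by over 1.5 times, the count without it is given beside the result.

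Serum changed the expression of 6197 of the 18668 tested genes in Lap2-depleted cells. Of these, 3420 (18.3% of the tested genes) were called higher and 2777 (14.9%) lower in 15% FBS. A log2FC above 1 was called for 701 genes (3.76%) and a log2FC under -1 for 565 (3.03%). Which of these was the larger number followed the scaling, with 505 against 1062 under scaling to total counts and 590 against 756 under upper-quartile scaling. Among the 10398 genes that averaged 100 or more normalized counts over the 6 libraries, 418 were called with a log2FC above 1 and 34 with a log2FC above 4, against 181 under -1. Of the 81 increases above 4 among all tested genes, 43 had a mean under 10 normalized counts, as had 22 of the 23 decreases beyond -4. The size of the fitted change is poorly determined for such genes, which are at or near 0 in 1 group. Single genes are named below only from a mean of 100 or as members of a list. Most of the calls over all genes were small, with 2719 increases and 2212 decreases of at most 1. How many genes were higher or lower followed the scaling: with total counts the median log2FC over all genes went from 0.00 to -0.23, with 1658 higher and 5949 lower genes, and upper-quartile scaling 2383 and 3942, with a median of -0.11. Control siRNA treated cells, fitted in the same model, had 2915 genes (15.6%) called higher and 2597 (13.9%) lower.

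**Figure D1:**
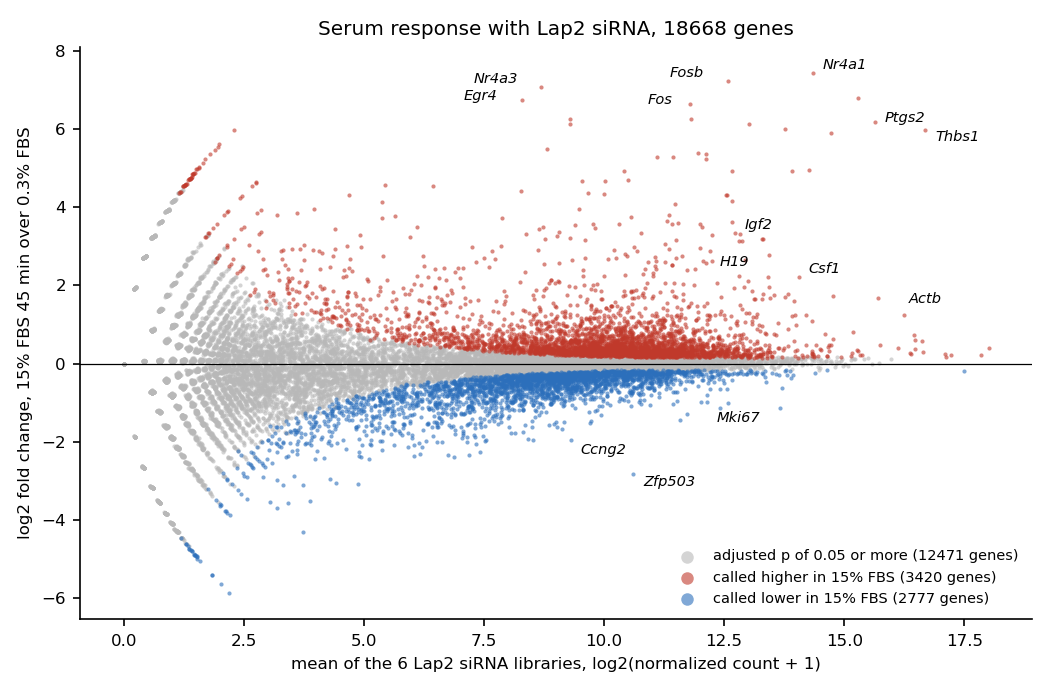
Each point is 1 of the 18668 tested genes, with the mean of the 6 Lap2 siRNA libraries on the x axis (log2 of the normalized count + 1) and the log2 fold change of 15% over 0.3% FBS on the y axis. Red points are the 3420 genes called higher, blue points the 2777 called lower and grey points the others; the largest increases at high levels, such as Nr4a1 and Fosb, reach further from 0 than the largest decreases, such as Zfp503.

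Immediate-early transcription factors were among the strongest responders. The 15 genes with the largest increases among those with at least 100 normalized counts included, in order of size, Nr4a1, Fosb, Nr4a3, Egr4, Fos, Hbegf, Lif, Ptgs2, Btg2, Dusp2, Errfi1, Thbs1, Ccn1 and Rgs16. Together the 15 took 0.0393% to 0.0407% of the counts of each library in 0.3% FBS and 2.42% to 2.62% in 15% FBS. In a list of 28 immediate-early transcription factors, 28 were called higher beside 18.3% of all tested genes. Their median log2FC was 3.98, beside 0.00 over all tested genes, and the counts of the groups did not overlap for any of the 28. Such separation was common: 2909 of the 10398 genes with at least 100 normalized counts were called higher without overlap. The list was drawn up with earlier results of these data known, so its direction is a description.

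Nr4a1, an orphan nuclear receptor, rose the most. It had 254, 243 and 229 normalized counts in 0.3% FBS and 44704, 42999 and 37527 in 15% FBS, a 172-fold increase (log2FC 7.43 ± 0.09, edgeR adjusted p = 2e-34). The 3 stimulated libraries lay within a narrow band far above the starved ones. Its relative Nr4a3 went from 5.51, 5.20 and 7.21 to 835, 776 and 830 (log2FC 7.06 ± 0.16) and Nr4a2 from 49.6, 66.6 and 67.0 to 619, 602 and 580 (log2FC 3.30 ± 0.14).

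The AP-1 family, whose Fos and Jun proteins bind DNA as dimers, rose in every member listed but by very different amounts. Fosb went from 68.9, 88.4 and 85.5 to 13237, 12792 and 10207 normalized counts (log2FC 7.23 ± 0.11, edgeR adjusted p = 1.1e-31). Fos went from 68.9, 65.5 and 78.3 to 8114, 7320 and 5718 (log2FC 6.63 ± 0.13), with replicate 3 the lowest of the stimulated libraries for both genes. The late-acting members Fosl1 and Fosl2 had log2FC of 3.58 ± 0.09 and 2.76 ± 0.06. Among the Jun genes, Junb rose from 1294, 1228 and 1195 to 37467, 37872 and 38434 (log2FC 4.94 ± 0.07), Jun from 4370, 4549 and 4224 to 14442, 14082 and 12905 (1.66 ± 0.06) and Jund from 2590, 2371 and 2436 to 5535, 5687 and 4684 (1.10 ± 0.07). Junb overlaps Prdx2 on the opposite strand, and the sources do not say whether strand was used in counting. Atf3, a stress-induced bZIP factor, rose from 71.6, 98.8 and 91.7 to 2927, 2639 and 2402 (log2FC 4.93 ± 0.12), and Maff, a small Maf protein, had a log2FC of 4.67 ± 0.10.

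All 4 Egr genes, which encode zinc finger factors, rose. Egr1 went from 901, 971 and 1063 to 31306, 30661 and 27545 normalized counts (log2FC 4.93 ± 0.09), Egr2 from 225, 250 and 229 to 8629, 8839 and 8726 (5.22 ± 0.08) and Egr3 from 182, 232 and 224 to 9056, 8859 and 8023 (5.35 ± 0.10). Egr4 was near 0 in 0.3% FBS, at 6.43, 7.28 and 3.09, and reached 582, 680 and 582 (log2FC 6.74 ± 0.21). The Krüppel-like factors were less uniform. Klf10 rose from 402, 450 and 401 to 12301, 12452 and 13146 (log2FC 4.92 ± 0.08) and Klf4 from 733, 734 and 903 to 2635, 2642 and 2365 (1.69 ± 0.08). Klf2 had the smallest change of the whole list, from 124, 111 and 109 to 186, 293 and 152 (log2FC 0.87 ± 0.18, edgeR adjusted p = 0.0003), with its stimulated libraries spread widely. Srf itself rose from 1435, 1518 and 1514 to 13142, 12665 and 13066 (log2FC 3.12 ± 0.06), and Myc, a driver of growth and proliferation, from 590, 640 and 585 to 4674, 4574 and 4609 (2.93 ± 0.07). Csrnp1, a nuclear protein of the immediate-early class, rose from 108, 101 and 120 to 4396, 4253 and 4245 (5.29 ± 0.08), and Npas4, a bHLH-PAS factor best known from neurons, from 66.1, 81.1 and 76.2 to 1391, 1749 and 1479 (4.37 ± 0.13).

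**Figure D2:**
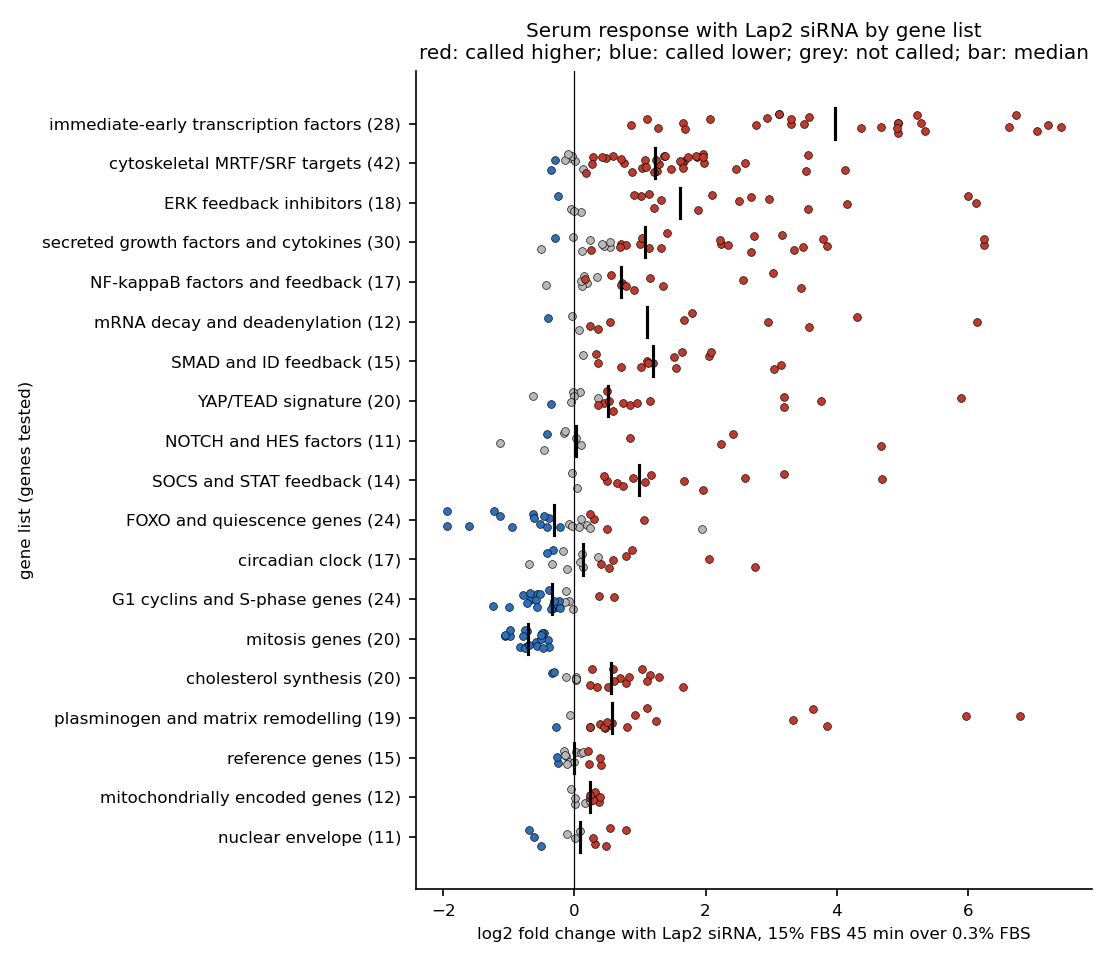
Each point is a gene, placed by its log2 fold change of 15% over 0.3% FBS with Lap2 siRNA on the x axis, in rows by gene list with the number of genes tested in brackets. Red points were called higher, blue points lower and grey points neither, and black bars are medians; the bar of the immediate-early transcription factors lies at 3.98 and that of the mitosis genes at -0.71.

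Most genes listed as ERK feedback inhibitors rose as well. The list was named for its main members, and what each member does to ERK was not examined. Of the 18 listed genes, 14 were called higher and 1 lower (18.3% and 14.9% of all tested genes), with a median log2FC of 1.61. The single lower call became 2 with scaling to total counts and was lost without replicate 2 or 3 in 0.3% FBS or replicate 1 in 15% FBS. Dusp2, Dusp5 and Dusp6 encode phosphatases that remove the activating phosphates of MAP kinases. Dusp2 rose from 25.7, 14.6 and 11.3 to 1168, 1086 and 1435 normalized counts (log2FC 6.12 ± 0.17), Dusp5 from 670, 736 and 653 to 11244, 12317 and 13315 (4.16 ± 0.08) and Dusp6 from 793, 816 and 820 to 4566, 4493 and 4767 (2.51 ± 0.07). Dusp1 had a log2FC of 1.89 ± 0.09, with 643, 752 and 672 in 0.3% FBS and 2847, 2693 and 2131 in 15% FBS. Dusp4 went from 158, 229 and 210 to 639, 637 and 1264 (2.10 ± 0.18), where replicate 3 lay far above the other stimulated libraries. Errfi1, an inhibitor of the EGF receptor, rose from 429, 436 and 412 to 28552, 28443 and 25083 (log2FC 6.01 ± 0.08), Spry4, a Sprouty inhibitor of receptor tyrosine kinase signalling, from 280, 331 and 372 to 2070, 2040 and 2202 (2.69 ± 0.10), and Ier3 from 659, 678 and 592 to 7966, 7290 and 7479 (3.56 ± 0.07).

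Secreted ligands formed the next group. Of 36 listed growth factors and cytokines, 30 passed the filter on low counts, of which 21 were called higher and 1 lower, beside 18.3% and 14.9% of all genes, with a median log2FC of 1.08. The lower calls became 2 with either other scaling, without replicate 3 in 0.3% FBS or without replicate 1 in 15% FBS. Ligands of the EGF receptor were among the most raised, with Hbegf at 117, 90.5 and 71.1 in 0.3% FBS and 6967, 6802 and 7617 in 15% FBS (log2FC 6.25 ± 0.11, edgeR adjusted p = 3.2e-30), and Ereg at 355, 357 and 349 and 4635, 4471 and 5537 (3.79 ± 0.08). Lif and Il11, cytokines of the gp130 family, rose from 13.8, 16.6 and 18.5 to 1331, 1128 and 1259 (log2FC 6.24 ± 0.14) and from 140, 157 and 174 to 1186, 1179 and 1849 (3.17 ± 0.14). Inhba, a subunit of activin, had 67.0, 69.7 and 71.1 normalized counts in 0.3% FBS and 692, 750 and 887 in 15% FBS (3.49 ± 0.12). Vegfa, which promotes vessel growth, rose from 731, 785 and 799 to 4275, 4430 and 6253 (log2FC 2.69 ± 0.10), and Pdgfa from 111, 122 and 90.6 to 454, 506 and 684 (2.35 ± 0.15). Replicate 3 was the highest stimulated library for Vegfa, Il11, Inhba and Pdgfa. Csf1, the macrophage growth factor, rose from 5659, 6209 and 6112 to 26808, 28401 and 28635 (2.22 ± 0.08). The chemokines Ccl2 and Cxcl1 had log2FC of 1.42 ± 0.10 and 2.74 ± 0.23. Tgfb3 was the ligand that fell, from 1923, 2181 and 2121 to 1722, 1584 and 1737 (log2FC -0.30 ± 0.07, edgeR adjusted p = 0.00073).

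Ptgs2, the inducible cyclooxygenase of prostaglandin synthesis (mm10 chromosome 1, 150100031 to 150108227), rose from 1405, 1381 and 1407 to 98386, 94338 and 109309 normalized counts (log2FC 6.17 ± 0.08). Rgs16, which shortens G protein signals, rose from 21.1, 25 and 12.4 to 914, 854 and 850 (5.47 ± 0.15).

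Regulators that destabilize mRNA were for the most part raised. Of 12 such genes, 9 were called higher and 1 lower, where the shares of all tested genes were 18.3% and 14.9%, and 2 lower with scaling to total counts. Btg2, an antiproliferative recruiter of deadenylases, went from 232, 217 and 242 to 17708, 16967 and 14008 (log2FC 6.14 ± 0.10), while the related Btg1 was the one that fell, from 5564, 5393 and 5456 to 4400, 4230 and 3790 (-0.40 ± 0.07). Zfp36, the tristetraprolin that binds AU-rich elements, rose from 546, 613 and 570 to 12296, 12114 and 10030 (4.32 ± 0.10), and Zfp36l1 from 4835, 5583 and 5779 to 18228, 18374 and 14748 (1.67 ± 0.08). The RNase gene Zc3h12a had a log2FC of 3.58 ± 0.09 and Noct, which encodes nocturnin, 2.95 ± 0.07.

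Feedback genes of cytokine and TGF-β family signalling were raised as well. In the list of SOCS and STAT feedback genes, 12 of 14 were called higher, beside 18.3% of all tested genes, with a median log2FC of 0.99, and 1 was called lower with scaling to total counts. Cish, a suppressor of STAT5 signalling, went from 93.7, 84.3 and 147 to 2866, 2953 and 2569 normalized counts (log2FC 4.69 ± 0.11), Socs2 from 270, 265 and 288 to 1073, 1073 and 1069 (1.96 ± 0.09) and Socs3 from 818, 729 and 730 to 2624, 2460 and 2159 (1.67 ± 0.08). The kinase genes Pim1 and Pim3 had log2FC of 3.20 ± 0.10 and 2.60 ± 0.08. Of 15 tested SMAD and ID genes, 14 were called higher, against the same 18.3%. Smad7, the inhibitory SMAD, rose from 581, 564 and 606 to 4831, 5149 and 5574 (3.15 ± 0.08), Skil, a SMAD corepressor, from 493, 536 and 584 to 4065, 4075 and 5146 (3.04 ± 0.09), and Smad6, the other inhibitory SMAD, from 241, 273 and 283 to 605, 572 and 655 (1.20 ± 0.10). Id1, a target of BMP signals, rose from 1212, 1022 and 1042 to 4640, 4496 and 4494 (2.06 ± 0.07) and Id4 had a log2FC of 1.64 ± 0.08.

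Among 17 genes of NF-κB factors and their feedback, 11 were called higher (18.3% of all genes) and 6 did not pass the test. Nfkbiz rose the most of those named here, from 125, 147 and 181 to 1779, 1825 and 1350 (log2FC 3.46 ± 0.12). Rel, a subunit of the factor, went from 125, 174 and 163 to 848, 922 and 952 (2.57 ± 0.10), and Relb had a log2FC of 1.15 ± 0.07. Bcl3 went from 227, 231 and 224 to 593, 613 and 541 (1.35 ± 0.09) and Tnfaip3 from 79.0, 95.7 and 91.7 to 171, 158 and 130 (0.78 ± 0.16). Of 11 tested NOTCH and HES genes, 4 were called higher and 1 lower, beside 18.3% and 14.9% of all genes. The lower calls became 2 with scaling to total counts or the upper quartile, filterByExpr, the replicate block or without replicate 2 in 15% FBS. Hes1, the repressor downstream of NOTCH, rose from 52.3, 60.3 and 54.6 to 1365, 1231 and 1681 (log2FC 4.68 ± 0.12), the ligand gene Jag1 from 317, 370 and 396 to 1781, 1624 and 1669 (2.23 ± 0.08) and the glycosyltransferase gene Lfng from 21.1, 27.1 and 35 to 147, 155 and 142 (2.42 ± 0.24), whereas the receptor gene Notch2 fell from 2888, 3779 and 3735 to 2716, 2600 and 2503 (-0.41 ± 0.08). Of 17 clock genes, 7 were called higher and 2 lower (18.3% and 14.9% of all genes), and with scaling to total counts 6 each, with upper-quartile scaling 7 and 6. Per1 and Nfil3 had the largest increases, from 896, 1010 and 988 to 4056, 4127 and 3791 (2.05 ± 0.07) and from 358, 355 and 387 to 2480, 2472 and 2483 (2.76 ± 0.08), and Nr1d2 fell (-0.42 ± 0.10).

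Cytoskeletal targets of MRTF and SRF responded widely but with smaller fold changes. Of 42 such genes, 34 were called higher and 2 lower, beside 18.3% and 14.9% of the tested genes, with a median log2FC of 1.23. With scaling to total counts, 30 were called higher and 7 lower, with upper-quartile scaling 33 and 4, and without replicate 1 in 0.3% FBS 5 were called lower. Among the actin genes, Acta2 rose from 3331, 2977 and 3217 to 12398, 12419 and 12100 normalized counts (log2FC 1.95 ± 0.08, edgeR adjusted p = 2.7e-20), Actb from 45451, 44910 and 46769 to 110674, 106887 and 109372 (1.25 ± 0.06) and Actg1 from 27477, 24608 and 24320 to 80717, 80383 and 81715 (1.67 ± 0.06). Actin transcripts are alike in sequence, so the counting could have divided reads between them. Tagln, a calponin family protein of smooth muscle, rose from 483, 406 and 398 to 5227, 4852 and 5116 (3.56 ± 0.09) and Lmod1, an actin nucleator of smooth muscle, from 106, 110 and 105 to 1363, 1089 and 1271 (3.54 ± 0.10). The 3 stimulated libraries were close to each other in all of these genes and far above the starved ones. Tagln overlaps Pcsk7 and Vcl overlaps Ap3m1 on the opposite strand.

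Components of actin filaments and adhesions followed. Tpm1, a tropomyosin, rose from 5006, 4675 and 4823 to 15643, 15223 and 14953 (log2FC 1.66 ± 0.06), the myosin light chain gene Myl9 from 242, 251 and 260 to 1062, 909 and 984 (1.97 ± 0.09) and Palld, which crosslinks actin, from 3237, 3943 and 3988 to 13489, 13174 and 13796 (1.86 ± 0.07). Of the focal adhesion genes, Zyx had a log2FC of 1.61 ± 0.06, and Vcl went from 5045, 5970 and 5781 to 10688, 11456 and 13225 (1.07 ± 0.08). Fhl2, a LIM-domain cofactor, rose from 1278, 1164 and 1108 to 4078, 4074 and 4758 (1.86 ± 0.08), and Filip1l from 1133, 1345 and 1412 to 4666, 4509 and 3689 (1.73 ± 0.09). Myh10, a nonmuscle myosin, was among the members that fell, from 9844, 12657 and 12766 to 9064, 8987 and 9529 (-0.35 ± 0.07), with replicate 1 the lowest of the starved libraries.

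CArG boxes in the promoters of responding genes are shown because they are the element that SRF binds. The box is the sequence CC, 6 bases that are each A or T, and GG, and it was searched on both strands in RefSeq promoter sequences of the GRCm38.p6 build, which run from 250 bases before to 50 after the start. Of all 32851 promoters in the table, 1.63% held a box. A promoter was found for 11805 tested genes, and of these 1.6% had a box in at least 1 promoter. Low-count genes crowd the extreme fold changes, so the classes by size of response hold the 8109 such genes with at least 100 normalized counts, of which 1.52% had a box. The share was 12% (3 of 25) among genes called with a log2FC above 4, 8% (6 of 75) from 2 to 4, 5.91% (12 of 203) from 1 to 2, 1.9% (39 of 2054) from 0 to 1, 0.974% (16 of 1642) for decreases of at most 1, 1.5% (2 of 133) for larger decreases and 1.13% (45 of 3977) for genes not called. By list, it was 25% (9 of 36) for the cytoskeletal genes, 10% (2 of 20) for the immediate-early transcription factors, 6.25% (1 of 16) for the ERK feedback inhibitors and 0 of 17 mitosis genes. These shares are descriptions of the letters in the window, without a test.

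A further pair of elements was counted in the same way. TGACGTCA, the full site of CREB, was in 1.79% of all promoters and in 3.85% of the 8109 genes, with 12% among increases above 4, 10.7% from 2 to 4, 4.93% from 1 to 2 and 2.26% among decreases under -1. TGANTCA, a site of AP-1, was in 7.81% of all promoters and 5.55% of these genes, with 8%, 10.7%, 8.37% and 5.26% in the same classes. Both strands were searched, and no stretch of letters can match more than 1 of the 3 elements in full.

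The CArG boxes of 2 transcription factor genes, an ERK phosphatase gene and 4 cytoskeletal genes are printed 5′ to 3′ on the strand of the gene, each with up to 35 bases on either side within the window and the boxes in capitals. They show the element in genes with large and with moderate responses. Egr2 and Fhl2 each had a box in 1 further promoter of the table, which is not printed.
Srf, chr17:46556180-46556279, - strand: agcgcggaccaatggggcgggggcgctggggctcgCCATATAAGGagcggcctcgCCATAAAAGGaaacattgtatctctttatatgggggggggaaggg
Egr2, chr10:67537762-67537841, + strand: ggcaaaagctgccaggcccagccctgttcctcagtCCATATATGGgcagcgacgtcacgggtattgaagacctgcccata
Dusp5, chr19:53529028-53529117, + strand: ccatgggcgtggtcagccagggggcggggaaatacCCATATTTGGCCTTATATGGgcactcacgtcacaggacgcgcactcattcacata
Vcl, chr14:20929148-20929215, + strand: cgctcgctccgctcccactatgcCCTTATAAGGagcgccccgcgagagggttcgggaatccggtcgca
Actg1, chr11:120348541-120348620, - strand: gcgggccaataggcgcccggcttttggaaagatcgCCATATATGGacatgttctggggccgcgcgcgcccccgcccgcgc
Myl9, chr2:156775268-156775347, + strand: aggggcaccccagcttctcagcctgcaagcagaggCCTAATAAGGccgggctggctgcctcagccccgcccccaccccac
Fhl2, chr1:43163962-43164027, - strand: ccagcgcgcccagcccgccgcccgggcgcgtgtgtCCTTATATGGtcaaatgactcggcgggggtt
The boxes of Srf began 82 and 62 bases before the start and those of Dusp5, which adjoin, 82 and 72. Their transcripts rose by 3.12 and 4.16 on the log2 scale, that of Egr2 by 5.22, and those of Vcl, Actg1, Myl9 and Fhl2 by 1.07, 1.67, 1.97 and 1.86. The promoters of Nr4a1, Fos and Acta2 in the table held no box, which says only that these letters are not within this window.

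Secreted matricellular proteins and the plasminogen system held some of the largest increases. Of 19 tested genes of plasminogen control and matrix remodelling, 16 were called higher and 1 lower (18.3% and 14.9% of all genes), and with either other scaling 2 were called lower. Plau, the plasminogen activator urokinase, rose from 409, 374 and 343 to 4951, 4773 and 4354 normalized counts (log2FC 3.64 ± 0.08, edgeR adjusted p = 6.1e-27) and the urokinase receptor Plaur from 347, 320 and 274 to 2962, 2947 and 3628 (3.34 ± 0.10). Thbs1, thrombospondin 1, rose from 3154, 3389 and 3357 to 222029, 213907 and 188518 (5.98 ± 0.07), while Thbs2 was the member that fell, from 9150, 10658 and 10343 to 7929, 7994 and 8933 (-0.28 ± 0.07). The protease inhibitor Timp3 and the collagen crosslinker Lox rose from 9915, 11151 and 12325 to 27204, 25753 and 26095 (1.24 ± 0.07) and from 25361, 27173 and 28893 to 48875, 49723 and 42691 (0.80 ± 0.07).

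In a signature of YAP and TEAD, 20 genes were tested, 13 were called higher and 1 lower, beside 18.3% and 14.9% of all genes, with a median log2FC of 0.51. The lower calls became 5 with scaling to total counts, 3 without replicate 1 in 0.3% FBS and 2 without replicate 1 in 15% FBS. Ccn1, a matricellular ligand of integrins, rose from 857, 962 and 885 to 58334, 53141 and 49113 (log2FC 5.89 ± 0.10) and Ccn2 from 2010, 2011 and 1888 to 18889, 16876 and 18153 (3.19 ± 0.09). F3, tissue factor, rose from 1950, 1978 and 2045 to 20149, 18560 and 16005 (3.19 ± 0.08), the kinase gene Nuak2 from 223, 214 and 183 to 2738, 2456 and 3194 (3.75 ± 0.10) and Ankrd1 from 308, 303 and 340 to 638, 732 and 740 (1.15 ± 0.10). The forkhead gene Foxf2 fell (-0.36 ± 0.07).

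Genes of cholesterol synthesis and uptake rose moderately, with 14 of 20 called higher and 2 lower (18.3% and 14.9% of all genes) and a median log2FC of 0.55. With scaling to total counts these were 11 and 6, and 1 lower call was left without replicate 1 or 2 in 0.3% FBS or replicate 2 or 3 in 15% FBS. Insig1, which restrains sterol synthesis, rose from 4454, 4640 and 4644 to 10842, 10596 and 12292 (log2FC 1.30 ± 0.06). Mvk, mevalonate kinase, fell from 1545, 1424 and 1360 to 1196, 1197 and 1099 (-0.31 ± 0.08).

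The 15 genes with the largest decreases were Zfp503, Zkscan14, 9930012K11Rik, Mrm2, AI480526, Ttc30b, Zfp763, Zfp53, Ccng2, Bcl6, Zfp658, Zfp41, Tmem177, B130024G19Rik and Zscan22, under the same rule as for the increases. Zfp503, a transcriptional repressor, fell from 2455, 2888 and 2877 to 438, 451 and 273 normalized counts (log2FC -2.83 ± 0.11, edgeR adjusted p = 3.6e-20). The other 14 had log2FC between -2.40 (Zkscan14) and -1.88 (Zscan22). Mrm2, a methyltransferase of mitochondrial ribosomal RNA, fell from 190, 178 and 165 to 31.2, 35 and 38.6, and Ttc30b, a protein of transport within cilia, from 283, 260 and 226 to 63.5, 75.3 and 48.3. Tmem177, a mitochondrial protein, fell from 197, 220 and 201 to 57.8, 42.4 and 63.8, and the transcripts 9930012K11Rik, AI480526 and B130024G19Rik had log2FC of -2.34, -2.26 and -1.89. Mrm2 overlaps Nudt1 and B130024G19Rik overlaps Nr2f2, which had far more counts, on the opposite strand.

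Of these 15, 7 were zinc finger genes named Zfp, Zkscan or Zscan, so all genes with such names and at least 100 normalized counts were examined, a set chosen after the values were seen. Of these 279 genes, 162 (58.1%) were called lower and 33 higher, with a median log2FC of -0.33, beside 21.3% called lower and a median of 0.04 over the 10398 genes with that level. With control siRNA the median of the 279 genes was -0.51, beside 0.01 over the 10398, so the fall was not particular to Lap2-depleted cells. Zfp41 fell from 509, 545 and 574 to 168, 135 and 124 (-1.94 ± 0.11), Zfp763 from 207, 265 and 205 to 64.7, 60.4 and 44.4 (-2.00 ± 0.16), and Zfp53 and Zfp658 had log2FC of -1.98 and -1.95. Such genes form large families with close copies, between which reads could have been divided.

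Genes of quiescence and of FOXO factors, which are active when growth factor signals are low, fell for the larger part. Of 24 tested, 13 were called lower and 4 higher, beside 14.9% and 18.3% of all tested genes, and the median log2FC was -0.31. With either other scaling 2 were called higher. Ccng2, a cyclin of arrested cells, fell from 1074, 934 and 1019 to 303, 246 and 238 normalized counts (log2FC -1.95 ± 0.11, edgeR adjusted p = 9.2e-16). Bcl6, a repressor activated by FOXO proteins, fell from 505, 636 and 614 to 136, 171 and 146 (-1.95 ± 0.11) and Fbxo32, a ubiquitin ligase subunit of atrophy, from 346, 405 and 423 to 138, 139 and 108 (-1.61 ± 0.12). Irs1, the insulin receptor substrate, fell from 1030, 1248 and 1187 to 543, 500 and 437 (-1.23 ± 0.09), Pik3ip1, an inhibitor of PI3 kinase, from 973, 903 and 889 to 493, 428 and 344 (-1.13 ± 0.10), and Txnip, the thioredoxin-interacting protein, from 1521, 1645 and 1832 to 1027, 862 and 701 (-0.95 ± 0.10). Foxo3 itself had a log2FC of -0.63 ± 0.07, the cell cycle inhibitor gene Cdkn1b -0.62 ± 0.07, and Cited2 -0.47 ± 0.07. Arrdc3, an arrestin family member, and Gas6, a ligand of TAM receptors, were among the 4 that rose, with log2FC of 1.06 ± 0.08 and 0.50 ± 0.07.

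**Figure D3:**
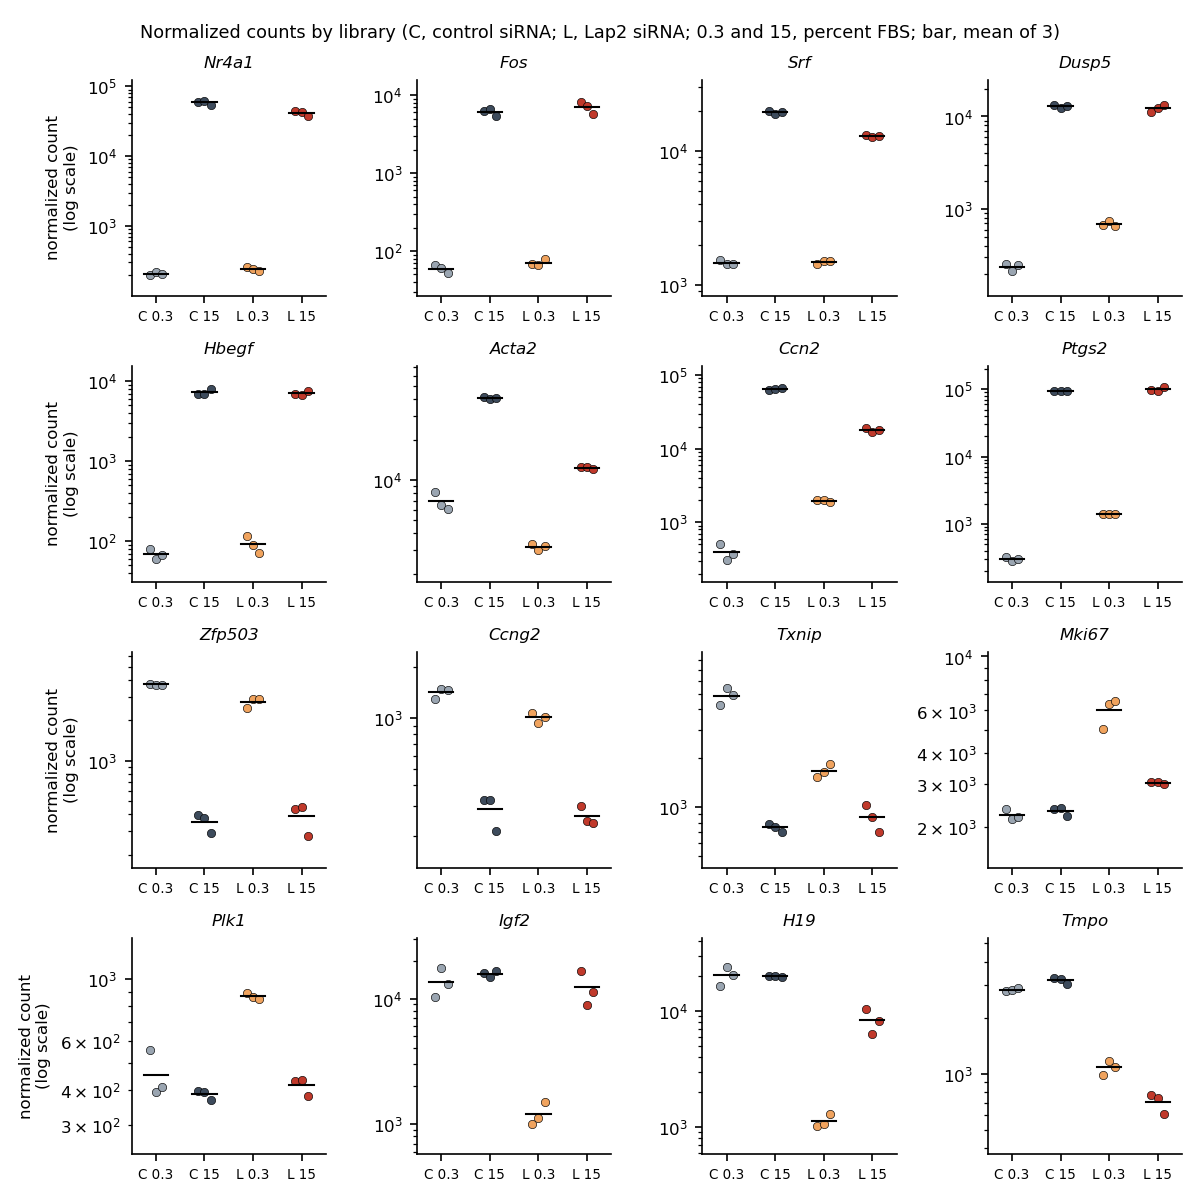
Normalized counts (y axis, logarithmic, with its own range in each panel) of 16 genes in the 12 libraries, as 3 points per group with a bar at the mean: control siRNA (C) and Lap2 siRNA (L) in 0.3% and 15% FBS. Nr4a1 separates starved from stimulated cells with both siRNAs, whereas Mki67 and Plk1 fall and Igf2 and H19 rise between the Lap2 groups and show no such step in the control groups.

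Genes of mitosis were lower in stimulated than in starved Lap2-depleted cells. Whether their levels already differed between these sets of cells before serum was added was not tested. All 20 listed mitosis genes were called lower (beside 14.9% of all tested genes), with log2FC from -1.07 to -0.38 and a median of -0.71. All 20 were also called lower with scaling to total counts and to the upper quartile, and in each of them the libraries of the groups did not overlap. Of the 10398 genes with at least 100 normalized counts, 2063 were called lower without overlap. Mki67, the proliferation marker Ki-67, had 5054, 6391 and 6561 normalized counts in 0.3% FBS and 3055, 3056 and 2986 in 15% FBS (log2FC -0.98 ± 0.07, edgeR adjusted p = 8.7e-13). Plk1, a kinase of mitotic entry, went from 895, 862 and 847 to 431, 435 and 381 (-1.06 ± 0.10), and Ttk, a kinase of the spindle checkpoint, from 466, 380 and 371 to 185, 199 and 197 (-1.07 ± 0.12). Ccnb1, cyclin B1, went from 1101, 1128 and 1167 to 619, 732 and 698 (-0.73 ± 0.09) and Ccnb2 from 441, 358 and 355 to 290, 305 and 274 (-0.41 ± 0.11). The smallest change was that of Cenpe, a kinetochore motor, from 2008, 2409 and 2525 to 1745, 1929 and 1643 (-0.38 ± 0.08).

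The control libraries differed from this. In the same fit the 20 mitosis genes had a median log2FC of 0.01 with control siRNA, with 4 called higher and 1 lower, and the difference of the responses was called negative for all 20, beside 6.51% of all tested genes, and for 19 without replicate 1 of the starved Lap2-depleted cells. Mki67 had 2366, 2150 and 2189 normalized counts in 0.3% FBS and 2354, 2396 and 2221 in 15% FBS with control siRNA, so the serum-stimulated Lap2-depleted cells lay nearer to the control levels than the starved ones did. For Plk1 the control values were 556, 393 and 410 and 395, 395 and 369, and those of the stimulated Lap2-depleted cells lay among them. Lmnb1, lamin B1, fell in the same direction with Lap2 siRNA, from 926, 872 and 901 to 514, 579 and 576 (-0.69 ± 0.08).

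G1 and S-phase genes were also mostly lower: 18 of 24 were called lower and 2 higher, beside 14.9% and 18.3% of all tested genes, with a median log2FC of -0.34 against 0.24 with control siRNA, where 12 were called higher and 1 lower. The difference of the responses was called negative for 18 of the 24, beside 6.51% of all genes. With scaling to total counts, 22 were called lower and 1 higher. Cdc6, which loads the replicative helicase, fell from 282, 262 and 220 to 116, 121 and 146 (log2FC -1.0 ± 0.14), and the helicase subunit gene Mcm5 from 1825, 1837 and 1798 to 940, 1116 and 1254 (-0.72 ± 0.09). Ccnd1, cyclin D1, fell from 585, 745 and 764 to 414, 408 and 584 (-0.57 ± 0.11), with replicate 3 of the stimulated libraries level with replicate 1 of the starved ones. It overlaps another gene on the opposite strand. Ccnd3, cyclin D3, was one of those that rose, from 3382, 3172 and 3200 to 5085, 4930 and 4790 (0.60 ± 0.06).

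Other genes rose with Lap2 siRNA beyond their response with control siRNA. The 8 genes whose response with Lap2 siRNA exceeded that with control siRNA the most were Igf2, H19, Lmcd1, Mfap4, Mest, Clec3b, Mfap5 and Nbl1. They were picked for this difference, so their values are descriptions. Igf2, an imprinted growth factor (mm10 chromosome 7, 142650766 to 142666816), had 1001, 1116 and 1507 normalized counts in 0.3% FBS and 16693, 8815 and 11266 in 15% FBS (log2FC 3.34 ± 0.17), against 10367, 17413 and 12954 and 15852, 14878 and 16604 with control siRNA. H19, the noncoding RNA imprinted with it (mm10 chromosome 7, 142575529 to 142578143), had 1027, 1069 and 1290 and 10420, 6361 and 8203 (2.88 ± 0.12), against 16361, 24005 and 20436 and 19891, 20135 and 19639. In both genes the starved Lap2-depleted libraries were the lowest of all 12 and the stimulated ones reached the range of the control libraries in replicates 1 and 3 for Igf2 but stayed below it for H19. Mest, which is also imprinted, went from 162, 189 and 203 to 834, 733 and 549 (control 962, 1414 and 1248, then 941, 966 and 1139).

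The microfibril genes Mfap4 and Mfap5 rose from 28.5, 39.5 and 47.4 to 191, 156 and 158 and from 56.9, 34.3 and 57.7 to 211, 155 and 159, with 383 to 594 and 266 to 420 in the control libraries. Nbl1, a secreted BMP antagonist, rose from 249, 225 and 249 to 1514, 1094 and 1182, Clec3b, tetranectin, from 151, 65.5 and 128 to 624, 418 and 426, and the LIM-domain gene Lmcd1 from 39.5, 30.2 and 27.8 to 412, 457 and 438. Each of these 5 was lower in starved Lap2-depleted cells than in any control library. Mfap4 overlaps Mapk7 and Mest overlaps Copg2, which had more counts, on the opposite strand.

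The 8 genes whose response fell short of that with control siRNA the most included Ccn2, Cd300lb, Fam110c, Dusp4, Dock8, Ptgs2 and Ccn1, again picked for this value. In Ccn2, the response was 3.19 with Lap2 siRNA and 7.38 with control siRNA, where the counts were 500, 306 and 372 in 0.3% FBS and 63465, 64766 and 67432 in 15% FBS. For Ccn1 the responses were 5.89 and 7.90, and for Ptgs2 6.17 and 8.29. The starved levels of these 3 genes were higher with Lap2 siRNA than in any starved control library. Fam110c rose from 59.7, 56.2 and 63.9 to 215, 221 and 546 with Lap2 siRNA and from 1.96, 3.47 and 4.31 to 196, 172 and 163 with control siRNA. In Fam110c, replicate 3 lay far above the other stimulated libraries. Cd300lb, an immune receptor, and Dock8, a guanine nucleotide exchange factor of blood cells, fell with Lap2 siRNA, from 188, 228 and 214 to 56.6, 26.5 and 126 and from 281, 305 and 386 to 107, 104 and 221, and rose with control siRNA (1.94 and 1.21 on the log2 scale). The summed leukocyte markers were 63.4 to 83.2 in starved and 57 to 62.4 normalized counts in stimulated Lap2-depleted cells. Adgre1 and Itgam were at 0, whereas Cd68 lay at 25.4 to 51, Csf1r at 14.8 to 32.2 and Ptprc at 0 to 11.6.

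Over all genes, the difference of the 2 responses was called negative for 1216 genes (6.51%) and positive for 1324 (7.09%) by edgeR's interaction test. Without replicate 1 of the starved Lap2-depleted cells these became 1973 and 1556. Responses of opposite direction, each called with its own siRNA, were found for 260 genes, of which 118 rose and 142 fell with Lap2 siRNA. The immediate-early factors had 12 differences called negative and 4 positive, the cytoskeletal genes 25 and 3 and the YAP and TEAD genes 5 and 1. Without replicate 1 in 0.3% FBS these were 15 and 4, 28 and 3, and 9 and 1. The ERK feedback inhibitors had 10 and 1, the SOCS and STAT genes 1 and 7, and the FOXO and quiescence genes 4 and 14. Txnip showed the largest such difference among the FOXO genes named, falling from 4277, 5408 and 4878 to 791, 752 and 705 with control siRNA (log2FC -2.69), beside a log2FC of -0.95 with Lap2 siRNA. Junb, Jund and Socs2 had larger responses in Lap2-depleted cells, with 4.94, 1.10 and 1.96 against 4.07, 0.14 and 0.47. For Egr2, Egr3, Fosl1 and Npas4 they were smaller, with 5.22, 5.35, 3.58 and 4.37 against 6.44, 6.46, 5.40 and 6.24. No difference was called for Fos (-0.04 ± 0.21, edgeR adjusted p = 0.94) or Csrnp1 (0.01 ± 0.13, adjusted p = 1).

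**Figure D4:**
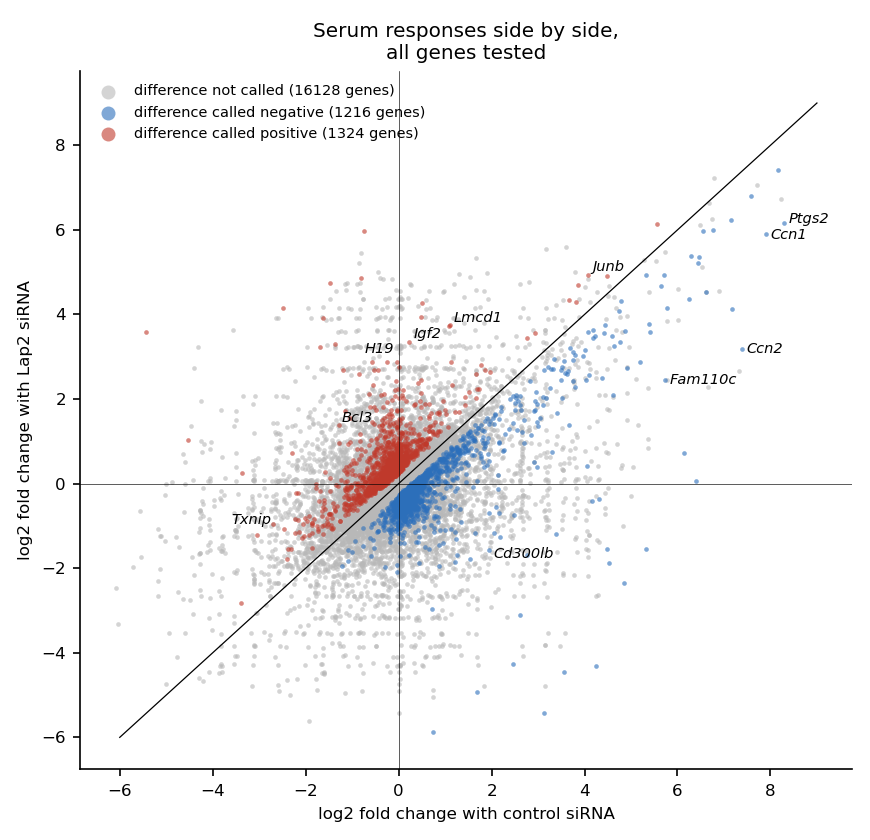
Each point is a tested gene, with its serum response (log2 fold change of 15% over 0.3% FBS) with control siRNA on the x axis and with Lap2 siRNA on the y axis, and the line marks equal responses. Blue points are the 1216 genes whose difference was called negative and red points the 1324 called positive, the difference being computed from the same 12 libraries as both axes; Ccn2 lies furthest below the line among the labelled genes and Igf2 well above it.

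Some genes responded with Lap2 siRNA and were not called with control siRNA. Under the rule for such genes, the largest decreases were those of Megf10, a phagocytic receptor, Ngef, a guanine nucleotide exchange factor, Slc40a1, the iron exporter ferroportin, Pif1, a DNA helicase, and Kcnk2, a potassium channel. Slc40a1 fell from 310, 315 and 301 to 90.1, 103 and 162 (log2FC -1.37 ± 0.17) and Kcnk2 from 176, 208 and 166 to 85.5, 74.2 and 66.7 (-1.28 ± 0.17). Megf10, Ngef and Pif1 had log2FC of -1.41, -1.39 and -1.29. They were chosen for these calls, so the values are descriptions. The 5 largest increases were those of Igf2, H19, Clec3b, Mest and Mfap5, which are described above.

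The span of the gene, from its start to its end as the deposited files give them, went with the response. Among genes under 10 kb, 10.3% were called higher and 12.4% lower. From 10 to 50 kb the shares were 21.9% and 19.1%, and over 50 kb 27% and 11.9%. Among genes over 50 kb, a log2FC above 1 was called for 2.71% and under -1 for 0.809%, beside 3.96% and 4.1% under 10 kb. From a mean of 100 normalized counts on, genes called with increases above 4 had a median span of 5463 bases, those with increases of 1 to 4 17526 bases, those with increases of at most 1 32140 bases and those with decreases under -1 12571 bases, beside 24012 bases for all 10398 genes. Over all tested genes, shorter genes also had lower counts, with a median of 15 normalized counts under 10 kb, 442 from 10 to 50 kb and 576 over 50 kb. Without replicate 1 of the starved group, in which long genes were lower, the shares called higher and lower were 12.9% and 11.5% under 10 kb and 23.1% and 17.6% over 50 kb. Among protein-coding genes with at least 100 normalized counts the shares were 22.7% and 25.5% under 10 kb, 29.5% and 23.7% from 10 to 50 kb, and 34.9% and 14.6% over 50 kb. The shares also went with span in control siRNA treated cells. Over all tested genes they were 8.81% higher and 12.8% lower under 10 kb there. From 10 to 50 kb they were 18.4% and 18.5%, and over 50 kb 23.4% and 7.61%.

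**Figure D5:**
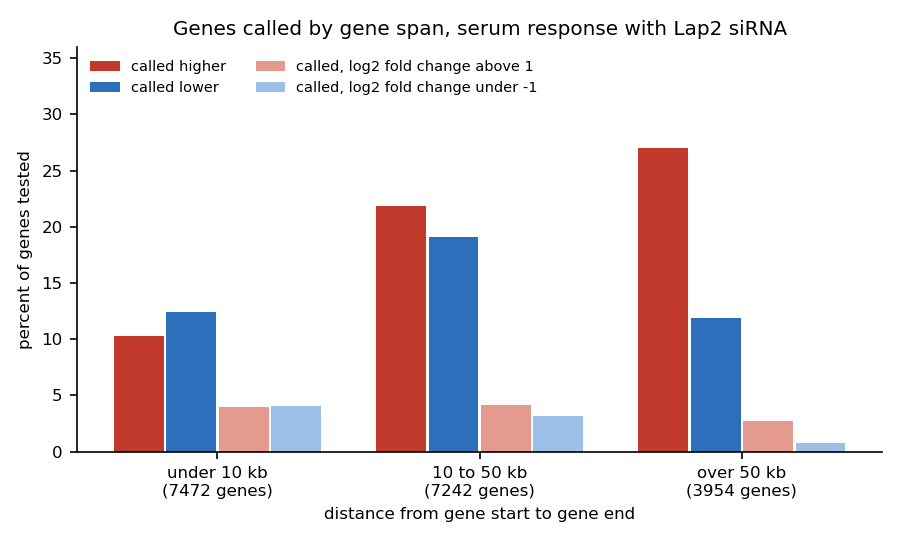
Bars give the percent of tested genes (y axis, from 0) called in the serum response with Lap2 siRNA, for genes spanning under 10 kb (7472), 10 to 50 kb (7242) and over 50 kb (3954). The share called higher rises from 10.3% to 27% with span, and the share called with a log2 fold change under -1 falls from 4.1% to 0.809%.

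By class of gene, 23% of 13906 protein-coding genes were called higher and 18.1% lower. Of 753 lincRNA genes, 3.98% were called higher and 7.7% lower, and of 935 antisense genes 4.28% and 5.13%, at median levels of 5 and 4 normalized counts. Of 15 genes often used as references, 4 were called higher and 2 lower, beside 18.3% and 14.9% of all genes, and with scaling to total counts 1 and 9, so their direction follows the scaling. The lower calls were 4 with DESeq2 and without replicate 3 in 15% FBS. Of 12 tested mitochondrially encoded genes, 7 were called higher, beside 18.3% of all tested genes. The higher calls were 4 without replicate 2 or 3 in 0.3% FBS or without replicate 1 in 15% FBS, and 3 with upper-quartile scaling. With scaling to total counts 0 were called higher and 1 lower, so their direction follows the scaling too. Of 11 genes of the nuclear envelope, Tmpo included, 5 were called higher and 3 lower, which turned to 3 and 5 with scaling to total counts, beside 18.3% and 14.9% of all tested genes.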

How the data were processed

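Total RNA of NIH 3T3 cells was depleted of ribosomal RNA, and directional libraries were sequenced on an Illumina NextSeq. The authors aligned reads with TopHat2 to mm10, counted them per gene with HTSeq and tested them with DESeq. Versions, annotation and strand setting are not given in the sources used here. The deposited values are raw counts for 49671 genes per library, with gene start and end, and no 2 libraries were identical. Symbols were found for 99.3% of genes by Ensembl ID, and biotypes came from GENCODE.

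The 18668 genes whose count exceeded 1 in 3 or more of the 12 libraries were fitted with edgeR 4.0.16 (R 4.3.3) by TMM, glmQLFit and glmQLFTest, with the means of 4 groups in 1 fit and no covariate. Contrasts were the serum response with each siRNA and their difference, with Benjamini-Hochberg adjustment over all genes tested at 0.05. DESeq2 1.42.0, total-count and upper-quartile scaling, filterByExpr, no filter, the 6 libraries alone, the replicate block and leaving out each library were alternatives. The differences of the lists and the shares by gene span without replicate 1 in 0.3% FBS were added after seeing the data. In simulated counts for 18110 genes, 92.5% of 200 genes changed by a log2FC of 1 in the serum response with Lap2 siRNA were recovered. The 200 were drawn only from genes above a minimum mean count, so this share does not cover genes at a few counts. Of the unchanged genes, 7 were called.

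The members and gene lists were chosen with earlier results of these data known. Named genes were members of the lists, the 15 largest changes each way among called genes that averaged 100 or more normalized counts over the Lap2 siRNA libraries without overlap of the serum groups, the 8 largest differences of the responses each way, the 5 largest changes each way called with Lap2 siRNA alone with a called difference, and Tmpo. Of the list members, those named kept their call under all alternatives, a selection made after the values were seen. Some genes that the rule would name are not reported here. Promoters are those of RefSeq (GRCm38.p6).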

Additional observations from a re-analysis of the deposited data

Results flagged for a closer look

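The values below were singled out because the serum response of a named gene differed between Lap2 siRNA and control siRNA by edgeR's quasi-likelihood test of the interaction (adjusted p under 0.05). Each is the log2FC with Lap2 siRNA minus the log2FC with control siRNA. A negative value is thus a smaller rise, a larger fall or a fall in place of a rise in Lap2-depleted cells. Both responses enter each value, and no cause was tested.

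Of the immediate-early transcription factors, the difference was -0.73 for Nr4a1, -1.81 for Fosl1, -0.38 for Egr1, -1.22 for Egr2, -1.11 for Egr3, -0.62 for Srf, -0.78 for Atf3, -0.81 for Myc, -1.87 for Npas4 and -0.98 for Maff. It was positive for Junb (0.86), Jund (0.96), Klf10 (0.44) and Klf4 (0.47). The genes named from the list of ERK feedback inhibitors all had smaller responses where called. The values were -1.09 for Dusp1, -2.52 for Dusp4, -1.61 for Dusp5, -1.86 for Dusp6, -0.76 for Errfi1, -0.85 for Ier3 and -0.80 for Spry4.

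Among secreted factors it was -0.92 for Lif, -1.61 for Ereg, -2.18 for Cxcl1, -1.09 for Inhba and -0.63 for Ccl2, against 0.82 for Vegfa. It was -2.12 for Ptgs2. In plasminogen and matrix genes it was -0.57 for Thbs1, -0.53 for Thbs2, -0.55 for Plau and -1.43 for Plaur, against 0.52 for Timp3 and 0.60 for Lox. The YAP and TEAD genes had -2.01 for Ccn1, -4.19 for Ccn2, -0.68 for Nuak2 and -1.69 for Ankrd1.

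Genes of mRNA decay were divided, with -0.46 for Zfp36, -0.39 for Noct and -0.49 for Zc3h12a, against 0.58 for Btg2 and 0.96 for Zfp36l1. In NF-κB and cytokine feedback it was 0.69 for Nfkbiz, 1.77 for Bcl3, 0.32 for Relb, 0.83 for Cish, 1.49 for Socs2, 0.83 for Socs3 and 0.94 for Pim3, against -1.48 for Tnfaip3 and -0.49 for Pim1. In the SMAD, ID and NOTCH genes it was -1.05 for Id1, -0.86 for Smad7, -0.74 for Skil and -0.35 for Notch2, against 0.62 for Id4, 0.88 for Smad6 and 0.54 for Jag1. The clock gene Nfil3 had -0.45.

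The cytoskeletal genes had -0.61 for Acta2, -0.29 for Actb, -0.55 for Vcl, -1.24 for Fhl2, -1.18 for Filip1l, -0.75 for Palld and -0.47 for Myh10, against 0.62 for Tagln. Among the genes that serum lowered with control siRNA, a positive value is a smaller fall: it was 1.74 for Txnip, 1.01 for Pik3ip1, 0.36 for Foxo3, 0.29 for Cdkn1b and 0.56 for Zfp503. Of the remaining FOXO and quiescence genes named, whatever their direction with control siRNA, Arrdc3 had 0.57, Gas6 0.53, Bcl6 -0.73 and Cited2 -0.94.

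In the cell cycle genes it was -1.04 for Mki67, -0.84 for Plk1, -0.96 for Ttk, -0.71 for Ccnb1, -0.47 for Ccnb2, -0.75 for Cenpe, -0.68 for Cdc6, -1.0 for Mcm5 and -1.02 for Ccnd1, and in the lamina genes -0.79 for Tmpo and -0.45 for Lmnb1. The genes chosen for their difference had 3.13 (Igf2), 2.91 (H19), 2.64 (Lmcd1), 2.45 (Mfap4), 2.18 (Mest), 2.15 (Clec3b), 2.13 (Mfap5) and 1.96 (Nbl1) on the positive side. On the negative side they had -3.51 (Cd300lb), -3.27 (Fam110c) and -2.36 (Dock8), and included Ccn2, Dusp4, Ptgs2 and Ccn1, given above. Genes chosen as called lower with Lap2 siRNA and not called with control siRNA had -1.79 (Slc40a1), -1.75 (Ngef), -1.44 (Megf10), -1.37 (Pif1) and -1.11 (Kcnk2). The groups held 3 libraries each, which is too few for a test of outlying samples.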

How the results depend on the processing

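Of the counts over all genes, the scaling and 1 library moved some by more than 1.5 times, and small counts within the gene lists moved under further choices, as given beside them. Scaling to total counts gave 1658 genes called higher, 5949 called lower and 1062 with a log2FC under -1, and the median log2FC over all tested genes moved to -0.23 with it, so the division into higher and lower, of small and of large changes, rests on TMM. Leaving out each of the 6 Lap2 siRNA libraries in turn gave 2951 to 3402 genes called higher, 2276 to 3064 lower, 641 to 672 above 1 and 488 to 586 under -1. The differences called negative numbered 935 to 1973 and those called positive 951 to 1556. The 1973 came without replicate 1 in 0.3% FBS, for which the cause was not tested. DESeq2 called 3199 genes higher and 2829 lower, and a fit of the 6 Lap2 siRNA libraries alone 3008 and 2679. All 151 genes followed kept their direction and call in the serum response in all 1963 fits of the 13 alternatives. The list members among them were named because they kept their call, so for these the result was fixed by the selection. The interaction test of single genes was not followed in this way.

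The replicate numbers used here follow the order of the sample titles within each group, and they did not pair the libraries. Over 10449 genes, the 18 same-numbered pairs had correlations of deviations of -0.12 to 0.1, none (0 of 18) above 0.1. The 3 pairs of the Lap2 groups had -0.09 to 0.07. With the replicate block, 3374 genes were called higher, 2747 lower, 680 above 1 and 544 under -1, and 1232 differences were negative and 1320 positive. Genes at a few counts cannot show moderate changes at this depth.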
